A study of Homo sapiens with 4 samples.

Results

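The mitochondrial genome encodes 2 ribosomal RNAs and the messages of a few respiratory chain subunits, and the 8 genes described here were MT-RNR1 and MT-RNR2 (ribosomal RNA), MT-CYB (complex III), MT-CO1, MT-CO2 and MT-CO3 (complex IV), and MT-ATP6 and MT-ATP8 (complex V). They were chosen by gene name, and their peaks were found by Ensembl identifier and position on the mitochondrial chromosome. All 8 genes carried an N4-acetylcytidine (ac4C) peak in both conditions, with 9 of the 6403 peaks of the control and 10 of the 6417 peaks of the knockdown. The cells were FaDu, an established human line of hypopharyngeal squamous carcinoma origin, carrying by stable lentiviral transduction and puromycin selection either a control shRNA (shNC) or an shRNA against NAT10 (shNAT10). Both conditions thus share the cell line, the vector treatment and the selection, and the labels do not give which of the study's hairpins against NAT10 was sequenced. In acRIP-seq, total RNA is fragmented, an antibody enriches the fragments bearing ac4C (IP), and the IP is compared with RNA sequenced without pull-down (input). There were 4 libraries, 1 IP and 1 input per condition, without replicates, so every value below stands without a replicate error and no test between the conditions was made. The depth of the libraries and the scaling between them are unknown, and a peak's fold enrichment is the ratio of IP to input within its own condition.

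Mitochondrial genes are transcribed as long precursors from both strands of a circular genome, and the precursors are cut largely at the transfer RNAs that lie between the genes. The ribosomal RNAs form the core of the mitochondrial ribosome, which translates the mitochondrial messages into membrane subunits of the oxidative phosphorylation complexes. NAT10 is the acetyltransferase known to write ac4C on cytosolic ribosomal RNA and transfer RNA, and it has also been linked to ac4C on messages. The peak lists give no RNA levels, so the NAT10 knockdown itself was not checked here. Where only a ratio is given, a change of the IP signal cannot be told apart from a change of the input signal.

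The listed values of the ribosomal RNAs differed in direction, lower in shNAT10 for MT-RNR1 and higher for MT-RNR2, without replicates to judge either difference. MT-RNR1 (ENSG00000211459; mitochondrial chromosome, GRCh38, 648 to 1601, plus strand, 954 nt) encodes the RNA of the small mitoribosomal subunit, and it carried 2 peaks in each condition. The first peak, at 648 to 1244, had the same boundaries in both lists, began at the first base of the gene and covered 62.6% of it. Its fold enrichment was 20.2 in shNC and 12.2 in shNAT10, a ratio of 0.604 (log2 ratio -0.73), or 1.66-fold lower in shNAT10. The second peak ran from 1303 to 1571 in shNC and from 1303 to 1541 in shNAT10. Its fold enrichment was 4.57 in shNC and 3.26 in shNAT10, a ratio of 0.713 (log2 ratio -0.49). Both peaks of the gene were thus lower in the knockdown, and in both conditions the 5′ peak was the stronger. Between them lay 58 nt, from 1245 to 1302, that belonged to no peak. The peaks together covered 90.8% of the gene in shNC and 87.6% in shNAT10.

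MT-RNR2 (ENSG00000210082; 1671 to 3229, 1559 nt) encodes the RNA of the large mitoribosomal subunit, and a single peak covered 100% of the gene in shNC. In shNAT10 the peak ran from 1821 to 3229, so that the first 150 nt were without a peak and 90.4% of the gene was covered. The fold enrichment was 17.8 in shNC and 21.1 in shNAT10, a ratio of 1.19 (log2 ratio 0.25). This was the longest peak of each list, with 1559 nt in shNC and 1409 nt in shNAT10, whereas the longest nuclear peaks had 1229 and 1249 nt of exonic sequence. In shNC the value of the first MT-RNR1 peak (20.2) stood above that of MT-RNR2 (17.8), and in shNAT10 below it (12.2 and 21.1), each from 1 pair of libraries.

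MT-CYB (ENSG00000198727; 14747 to 15887, 1141 nt) encodes cytochrome b, the mitochondrially encoded subunit of complex III. Its peak lay at the 3′ end of the gene, from 15595 to 15887 in shNC and from 15565 to 15887 in shNAT10. The fold enrichment was 10.7 in shNC and 10.4 in shNAT10, a ratio of 0.972 (log2 ratio -0.04), the value closest to 1 among the 9 peaks paired between the lists. The peak covered 25.7% of the gene in shNC and 28.3% in shNAT10, the smallest share among the 8 genes in both conditions. The first 848 nt of the gene held no peak in shNC, and the first 818 nt held none in shNAT10.

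The subunits of complex IV, which form the catalytic core of cytochrome c oxidase, carried 1 peak each, and all 3 peaks ended at the last base of the annotated gene in both conditions. For MT-CO1 (ENSG00000198804; 5904 to 7445, 1542 nt), which encodes the largest core subunit, the peak at 6823 to 7445 had the same boundaries in both lists and covered the last 623 nt, 40.4% of the gene. Its fold enrichment was 10.2 in shNC and 12.2 in shNAT10, a ratio of 1.2 (log2 ratio 0.26). The higher value in the knockdown set MT-CO1 beside MT-RNR2 as the only members with a ratio above 1.

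The peak of MT-CO2 (ENSG00000198712; 7586 to 8269, 684 nt), which encodes the subunit that accepts electrons from cytochrome c, ran from 7645 to 8269 in shNC and from 7616 to 8269 in shNAT10. Its fold enrichment was 10.4 in shNC and 8.21 in shNAT10, a ratio of 0.789 (log2 ratio -0.34). The covered share of the gene was 91.4% in shNC and 95.6% in shNAT10, so the peak was lower but slightly longer in the knockdown.

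MT-CO3 (ENSG00000198938; 9207 to 9990, 784 nt), the third core subunit, had the highest fold enrichment of the 8 genes in both conditions, 34.7 in shNC and 32.9 in shNAT10. The ratio was 0.948 (log2 ratio -0.08). Its peak covered 96.3% of the gene in shNC, from 9236 to 9990, and 100% in shNAT10, from 9207 to 9990. The log10 p-value of the peak caller was -21900 in shNC and -24000 in shNAT10, the smallest finite value of each list. In all, 43 shNC peaks and 18 shNAT10 peaks, each of them nuclear, were listed with a log10 p-value of minus infinity and ranked before it.

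The complex V genes were both lower in the knockdown. MT-ATP8 (ENSG00000228253; 8366 to 8572, 207 nt) encodes the small accessory subunit of the membrane part of ATP synthase, and its peak covered the whole gene in both lists. The fold enrichment was 4.04 in shNC and 2.05 in shNAT10, a ratio of 0.507 (log2 ratio -0.98). MT-ATP8 had the lowest fold enrichment of the 8 genes in each condition and the lowest ratio among the 9 pairs. At 1.97-fold it lay just short of a 2-fold difference. Its log10 p-value went from -679 in shNC to -182 in shNAT10. Of all peaks of the list, 8.03% had a lower fold enrichment in shNC and 0.701% in shNAT10.

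MT-ATP6 (ENSG00000198899; 8527 to 9207, 681 nt) encodes the subunit that forms the proton path of ATP synthase with the ring of c subunits. In shNC, 1 peak covered the whole gene with a fold enrichment of 8.86. In shNAT10 the gene carried 2 peaks, at 8527 to 8823 with a fold enrichment of 4.38 and at 8882 to 9207 with 5.68. The stretch between them, 8824 to 8881, was 58 nt long and belonged to no shNAT10 peak, and the covered share of the gene was 91.5%. Against the shNC peak the ratio was 0.494 for the 5′ piece (log2 ratio -1.02) and 0.641 for the 3′ piece (log2 ratio -0.64). The 3′ piece shares more bases with the shNC peak and was the pair used in all counts below. The length-weighted mean of both pieces was 5.06, a ratio of 0.571 (log2 ratio -0.81). All these values were lower in shNAT10, by 1.56-fold to 2.02-fold, and only the 5′ piece went past 2-fold.

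Neighbouring genes share bases here. The end of MT-ATP8 and the start of MT-ATP6 overlap by 46 nt, from 8527 to 8572, on the same strand, and both genes are translated from 1 message. MT-ATP6 and MT-CO3 share 1 nt, at position 9207. Reads in the shared 46 nt cannot be assigned to 1 of these genes, so the peaks of MT-ATP8 and MT-ATP6 were not independent measurements. MT-ATP6 and MT-CO3 are also made from adjacent stretches of the precursor. The ratio was 0.641 for MT-ATP6, by its 3′ piece, and 0.948 for MT-CO3. Without replicates it is unknown whether these ratios differ beyond their spread.

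**Figure D1:**
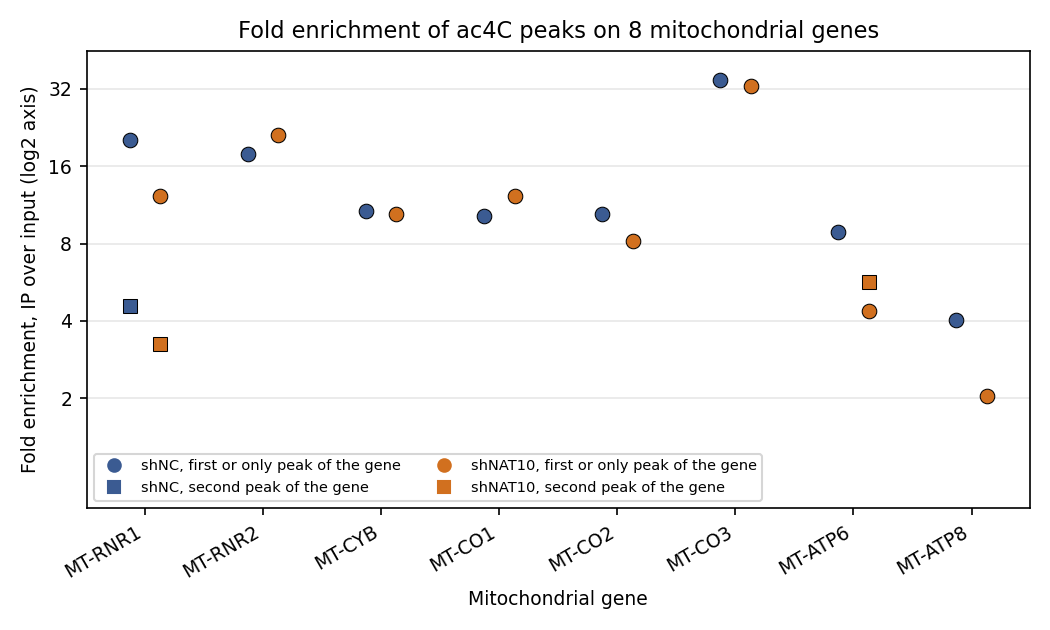
Fold enrichment of IP over input (log2 axis) of every peak on the 8 mitochondrial genes, in shNC (blue) and shNAT10 (orange); circles are the first or only peak of a gene and squares its second peak, with 1 IP and 1 input library per condition and no error bars. MT-CO3 stands highest in both conditions (34.7 and 32.9), and both peaks of MT-RNR1 and the peaks of MT-ATP6 and MT-ATP8 sit lower in shNAT10.

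**Figure D2:**
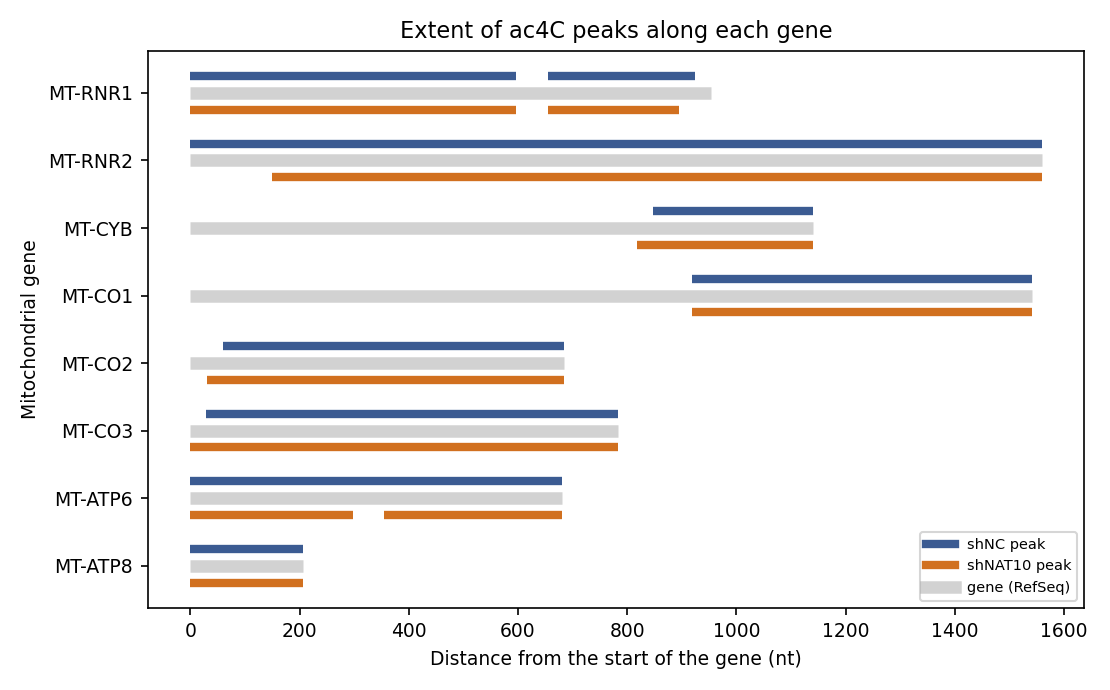
Extent of each peak along its gene, as distance from the start of the gene in nt, with the gene in grey, shNC peaks in blue above it and shNAT10 peaks in orange below it. MT-CYB and MT-CO1 have their peak at the 3′ end only, and the MT-ATP6 peak of shNC lies where shNAT10 has 2 peaks with a gap of 58 nt.

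The plot of peak extents shows where along each gene the signal was called. In shNC, 7 of the 9 peaks ended at the last annotated base of their gene, and in shNAT10 7 of the 10 did. The 7 genes concerned were all but MT-RNR1, whose second peak stopped 30 nt before the end in shNC and 60 nt before it in shNAT10. In each condition 4 peaks began at the first base of the gene. In both lists the MT-ATP8 peak ended at 8572 and a MT-ATP6 peak began at 8527, each at the boundary of its own gene. The part of the annotation in where peaks begin and end was not tested, and no such share was counted over nuclear peaks. In 3 of the 9 pairs, those of the first MT-RNR1 peak, MT-CO1 and MT-ATP8, the boundaries were the same in both lists. The other boundaries moved by 29 or 30 nt, apart from the start of MT-RNR2, which moved by 150 nt, and the split of MT-ATP6.

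All 9 shNC peaks of the 8 genes overlapped a shNAT10 peak, and all 10 shNAT10 peaks overlapped a shNC peak. Over the whole lists, 51.7% of the shNC peaks and 51.5% of the shNAT10 peaks shared 1 bp or more with a same-strand peak of the other list. The shNC share was 63.5% with an FDR of at most 1e-10 in both lists. Of the 269 nuclear shNC peaks with a log10 p-value of at most -562, the weakest on the 8 genes, 259 had a shNAT10 partner with at most -182. Nearly full overlap was thus also found among nuclear peaks with such small p-values. Of the 9 pairs, 7 had a lower fold enrichment in shNAT10 and 2 a higher one, and over all 3308 overlapping pairs 51.5% had a lower fold enrichment in shNAT10. The median ratio was 0.789 over the 9 pairs (log2 ratio -0.34) and 0.966 over all pairs (log2 ratio -0.05). With the median of all pairs set to 1, MT-CYB moved to 1.01 and 6 of the 9 pairs stayed lower.

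None of the 9 pairs differed by 2-fold or more, 0 lower and 0 higher. Of all overlapping pairs, 24.2% were at least 2-fold lower in shNAT10 and 22.8% at least 2-fold higher. The count of 0 depended on the 3′ piece standing for MT-ATP6, as its 5′ piece was 2.02-fold lower. At 1.5-fold, 3 of the 9 pairs were past the limit, all lower (the first MT-RNR1 peak, MT-ATP6 and MT-ATP8), beside 65.9% of all pairs in either direction. The median size of the log2 ratio, without its sign, was 0.34 for the 9 pairs and 0.93 for all pairs. The spread of the ratios was therefore narrower on these genes than over the lists as a whole.

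The p-values of the 8 genes were far smaller than those of most peaks, so the pairs were also set beside the 259 nuclear pairs whose log10 p-values were at most -562 in shNC and at most -182 in shNAT10, the weakest values found on the 8 genes. The shNAT10 limit came from MT-ATP8, the member with the lowest ratio, and 269 nuclear peaks passed in shNC beside 499 in shNAT10. The stricter shNC limit can favour pairs that are lower in shNAT10, so the direction within this set is a description only. Of these nuclear pairs, 64.5% were lower in shNAT10, the median ratio was 0.842 (log2 ratio -0.25) and 22% were past 2-fold. The median size of the log2 ratio was 0.48. The median fold enrichment of these nuclear pairs was 32.5 in shNC, above the 10.4 of the 9 pairs. Nuclear pairs with fold enrichments up to the highest values of the 8 genes in each condition numbered 2124. This set had no lower limit, with values from 1.35 in shNC and 1.46 in shNAT10, and no limit on p-values. Of these pairs 50.8% were lower in shNAT10, with a median ratio of 0.988, a median size of the log2 ratio of 0.75 and 38.2% past 2-fold. Among the 333 pairs with the same boundaries in both lists, 52.9% were lower and the median size was 0.62. How far the 9 pairs stood from other peaks in direction and spread thus depended on which peaks they were set beside. Among the 259 nuclear pairs with such p-values, the share with a lower ratio was 15.4% for MT-ATP8, 21.6% for the first MT-RNR1 peak, 25.9% for MT-ATP6 and 33.6% for the second MT-RNR1 peak. It was 43.2% for MT-CO2, 60.6% for MT-CO3, 61.4% for MT-CYB, 75.3% for MT-RNR2 and 76.1% for MT-CO1. The members thus ran from 15.4% to 76.1% of that distribution, and from 20.2% for MT-ATP8 to 59.8% for MT-CO1 among the 2124 pairs limited only by the highest fold enrichment.

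**Figure D3:**
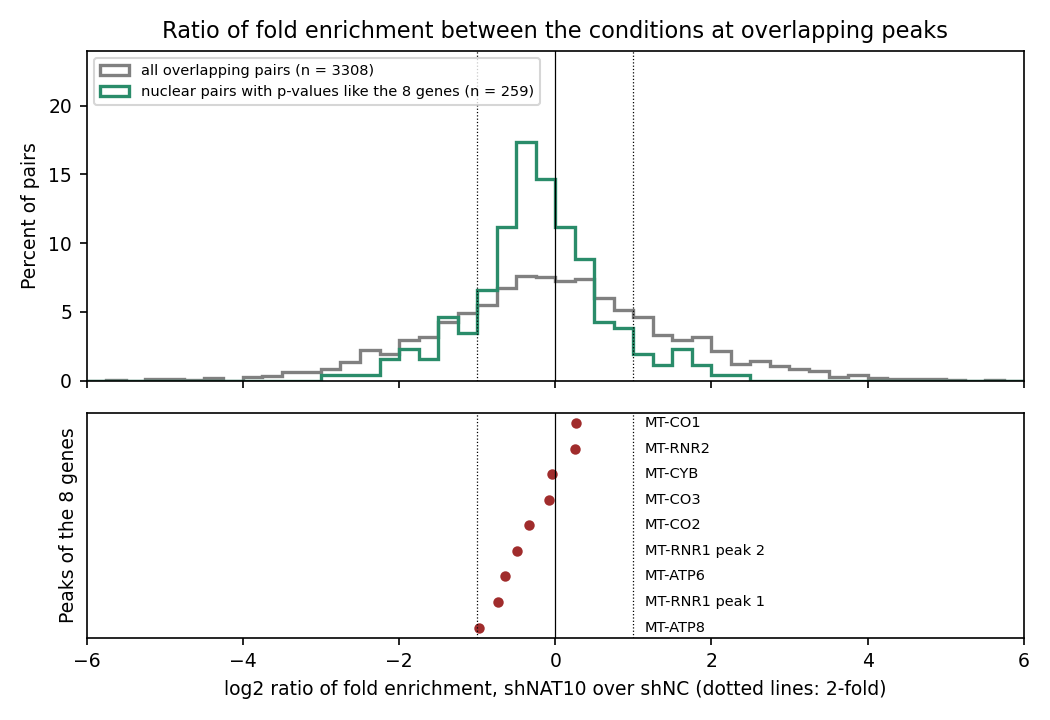
Top, percent of pairs by log2 ratio of fold enrichment, shNAT10 over shNC, for all 3308 overlapping pairs (grey) and for 259 nuclear pairs with p-values as small as those of the 8 genes (green); bottom, the 9 pairs of the 8 genes in order of their ratio, with dotted lines at 2-fold. The 9 pairs run from -0.98 for MT-ATP8 to 0.26 for MT-CO1, all inside the 2-fold lines, with MT-ATP6 shown by its 3′ piece.

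In shNC the listed values ran from MT-CO3 through the first MT-RNR1 peak, MT-RNR2, MT-CYB, MT-CO2, MT-CO1, MT-ATP6 and the second MT-RNR1 peak to MT-ATP8. In shNAT10, MT-CO3 stayed first and MT-ATP8 last, and MT-RNR2 was listed second. MT-CYB, MT-CO2 and MT-CO1 lay between 10.2 and 10.7 in shNC. Without replicates, it is unknown which neighbours in these lists differ beyond their spread, and no change of place between the conditions can be read from them.

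The median fold enrichment of the member peaks was 10.4 in shNC (4.04 to 34.7) and 9.3 in shNAT10 (2.05 to 32.9), beside 12.4 over all peaks of each list. The nuclear peaks with a p-value at least as small had higher values, with a median of 32.7 over 269 peaks in shNC and 30.5 over 499 peaks in shNAT10. The member peaks were also longer, with a median of 623 nt in shNC and 461.5 nt in shNAT10, beside 210 and 209 nt over all peaks. By fold enrichment the members were spread over the lists, from MT-ATP8, above 8.03% of all shNC peaks, to MT-CO3, above 85.1% of them. The abundance of the transcripts is not given by the lists, and its part in the p-values was not tested.

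**Figure D4:**
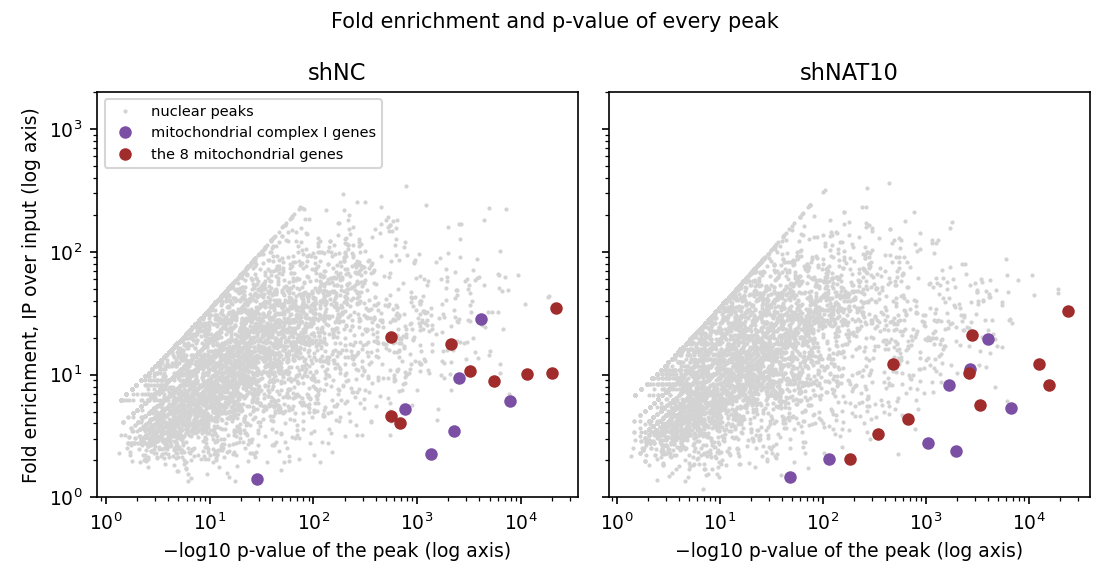
Fold enrichment of IP over input against the −log10 p-value of each peak (both axes logarithmic) in shNC and shNAT10, with nuclear peaks in grey, mitochondrial complex I genes in purple and the 8 genes in red; nuclear peaks listed with an infinite value (43 and 18) are not drawn. The peaks of the 8 genes lie to the right of most nuclear peaks, at fold enrichments from 2.05 to 34.7, and MT-CO3 is farthest right in both panels.

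The other protein-coding genes of the mitochondrial genome encode subunits of complex I, and 6 of these 7 genes had a peak in both lists. MT-ND4L had none. They held 7 peaks in shNC and 8 in shNAT10, with a median fold enrichment of 5.2 and 4.07. Of their 7 pairs, 3 were lower in shNAT10 and 4 higher, with ratios of 0.683 for MT-ND3, 0.791 for MT-ND1, 0.888 for MT-ND4, 1.07 for MT-ND2, 1.19 and 1.05 for the peaks of MT-ND5 and 1.59 for MT-ND6. MT-ND6, the one gene of these read from the minus strand, had the highest ratio of all mitochondrial pairs, with a fold enrichment of 5.2 in shNC and 8.27 in shNAT10. As among the pairs counted for the 8 genes, 0 of the 7 complex I pairs reached 2-fold. The last base of the gene was the end of 3 of 7 complex I peaks in shNC and 3 of 8 in shNAT10, beside 7 of 9 and 7 of 10 peaks on the 8 genes, a difference that was not tested.

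Copies of mitochondrial genes lie in the nuclear genome, and RefSeq lists 232 by name for the 8 genes, with 58 for MT-CO1, 47 for MT-CO3, 45 for MT-CYB, 34 for MT-CO2, 31 for MT-ATP6, 13 for MT-RNR2, 4 for MT-ATP8 and 0 for MT-RNR1. Only copies of MT-CO1 had a peak. The copy MTCO1P12 (chromosome 1, GRCh38, 631074 to 632616) carried a peak at 632408 to 632616 in shNC with a fold enrichment of 19.8, and at 632349 to 632616 in shNAT10 with 14. Both peaks ended at the last base of the copy, as the peak of MT-CO1 did at the end of its gene. The copy was lower in shNAT10, whereas MT-CO1 itself was higher. A second copy, MTCO1P40 on chromosome 17, had a peak in shNAT10 only, with a fold enrichment of 2.82. How reads that match a gene and its copy were assigned is not given in the sources used here, so the values of MT-CO1 and of these copies are uncertain to that extent.

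Positions of a cytidine motif were listed by the authors for the peaks of their table of differential peaks, which held 1 row for each of 7 of the 8 genes and no row for MT-CO3. Among nuclear shNC peaks, 2855 had an identifier paired with a symbol in that table and 3531 did not. These are counts of peaks and not of genes, so they give no like share for the 7 of 8 genes. The presence of the 7 genes there was not read as a result. The motif consists of 4 cytidines, each 3 bases after the one before, and the row of MT-RNR1 covered its second peak only. Each of the 7 rows held at least 1 site, 22 in all over 4226 nt, or 0.521 per 100 nt. There were 6 sites in MT-CO2, 5 in MT-ATP6, 4 in MT-RNR2, 2 each in MT-CYB, MT-CO1 and MT-ATP8, and 1 in MT-RNR1. Over all 2807 rows of that table the density was 0.487 per 100 nt and 60.9% of the rows held a site, and among rows at least as long as the shortest of the 7, 68.1% did. The density on the 7 genes was therefore close to that of the table, while it was 1.04 per 100 nt on the rows of complex I.

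In MT-ATP6, 4 of the 5 listed sites lay in the 5′ piece of the shNAT10 signal, at 8618, 8636, 8784 and 8803, and 1 lay in the 3′ piece, at 8923. The gap between the pieces held 0 sites. The sites of MT-ATP8, at 8427 and 8464, lay outside the 46 nt shared with MT-ATP6, which held 0 sites. The single site of MT-RNR1 was at 1487. The site positions are printed as listed, and no base sequence was at hand to check them against.

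The partners of these subunits are encoded in the nucleus, and 4 lists of them were examined. Of 9 nuclear genes of complex III, 8 had a peak in each list. Of 15 genes of complex IV, 11 had one in shNC and 10 in shNAT10, and of 18 genes of complex V, 16 had one in each. Of 30 genes for proteins of the small mitoribosomal subunit, the partners of the MT-RNR1 product, 19 had a named peak in shNC and 16 in shNAT10. Among the 19, AURKAIP1 had a shNC peak that overlapped an unnamed shNAT10 peak. By named peaks, these were 54 of 72 genes (75%) in shNC and 50 (69.4%) in shNAT10, beside 20.4% and 20.5% of 19974 nuclear protein-coding genes. With AURKAIP1 the shNAT10 count was 51 (70.8%). The expression of these genes is not in the files, and its part in the counts was not tested.

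The ratios of the nuclear partners covered a wider range than those of the mitochondrial genes. Over 59 overlapping pairs on 47 of them, log2 ratios ran from -2.97 to 4.58 with a median of 0.30, and 27 pairs (45.8%) were past 2-fold, 15 lower and 12 higher in shNAT10. Over all 3308 pairs the share past 2-fold was 46.9%, so in this respect the nuclear partners were like the lists as a whole. It was 22% among the 259 nuclear pairs with p-values as small as those of the 8 genes. The 59 pairs had no such limit and outnumbered the 9 pairs of the 8 genes, so the ranges were not compared like for like. By list, 5 of 10 pairs were lower in complex III, 4 of 14 in complex IV, 8 of 21 in complex V and 8 of 14 among the small-subunit proteins. In complex III, whose mitochondrial subunit MT-CYB had a ratio of 0.972, UQCR11 went from 54.6 to 11.9 (ratio 0.218), UQCR10 from 39.8 to 6.42 (0.161) and UQCRC1 from 29 to 46.9 (1.62). In complex IV, COX7A2 went from 69.8 to 133 (1.91), COX4I1 from 57.9 to 176 (3.04) and COX6C from 31.8 to 102 (3.21), beside 0.789 to 1.2 for the mitochondrial subunits. In complex V, ATP5MK went from 83.4 to 27.5 (0.33), ATP5PF from 83 to 24.1 (0.29) and ATP5PD from 64.2 to 8.17 (0.127), while 13 of the 21 complex V pairs were higher in shNAT10, up to a ratio of 23.9 for ATP5F1E. The ratio was 0.641 for MT-ATP6 and 0.507 for MT-ATP8. Among the small-subunit proteins, MRPS5 went from 113 to 20.4 (0.181), MRPS15 from 53.9 to 22.8 (0.423) and MRPS16 from 31.4 to 11.8 (0.376). These 12 genes were named for the highest shNC value of their list, which favours a fall, so their directions are a description only. ATP5F1E was named after its value was seen.

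For each member the nuclear genes with the most similar pair of values were found among the 2839 named nuclear pairs. The measure was distance in log2 fold enrichment over the 2 conditions. Among so many pairs a close match was likely for any peak, so the names are a description only. P-values were not matched: log10 p was -2130 in shNC and -2830 in shNAT10 for MT-RNR2, beside -13.1 and -5.67 for TXNRD1. The nearest to the first MT-RNR1 peak was POLR2H, with 20.1 in shNC and 12 in shNAT10, followed by KLHDC8B and TRAF4. The nearest to the second MT-RNR1 peak was ATG13, with 4.55 and 3.44, followed by SLIRP and PSMB10. MT-RNR2 had TXNRD1 (18 and 21.1), CCDC142 and TRUB2. MT-CYB had NUDT8 (10.6 and 9.72), SAT1 and TIMM8B.

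Among the complex IV genes, MT-CO1 had RPL17-C18orf32 (10.3 and 11.9), NUDC and WASHC2A, MT-CO2 had POLD1 (10.4 and 8.37), RANGAP1 and ATF4, and MT-CO3 had KHDRBS1 (34.2 and 33.2), CDKN1B and PHGDH. MT-ATP6 had TKT (8.98 and 5.58), RPL22 and MED16. MT-ATP8 had SNRPA (4.25 and 1.89), CAPNS1 and FTH1, at larger distances (0.14 to 0.16) than any of the others, whose distances ran from 0.016 to 0.11.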

How the data were processed

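Per the labels, acRIP-seq of FaDu cells started from fragmented total RNA, and the study's methods say the same of its acRIP, whereas its results text speaks of mRNA. Whether ribosomal RNA was depleted is not given in the sources used here. The submitters' processing notes name cutadapt 2.5, HISAT2 2.1.0, HOMER 4.10.4 and featureCounts 1.6.3, and the builds GRCh38, hg38 and GRCm38, without roles. The settings of the peak calls, their thresholds and the library scaling are not given in the sources used here. The deposited peak lists give, for each condition, fold enrichment as a linear ratio of IP to input and log10 values of p and FDR, called by the authors from 1 IP against 1 input library. The authors' table of differential peaks also has 3 columns of their comparison (log2 fold change, p-value and FDR), which were not used. Its symbols, region classes and site positions were.

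Peaks were taken to conditions by the prefix shared by the tables and the sample titles. Pairs were peaks sharing at least 1 bp of exonic block on the same strand, each shNC peak with the shNAT10 peak of largest overlap, and ratios of 2-fold were counted. Pairing was tested on simulated single-block peaks that lay far apart, each with at most 1 partner. The choice among several overlapping peaks, as for the split of MT-ATP6, was not covered by that test. The intervals of gene and copy positions came from RefSeq (GRCh38.p14), as the mitochondrial peaks share its gene boundaries. Nuclear genes were named by the symbol paired with the identifier where that gene lay at the peak, and otherwise where exactly 1 RefSeq gene held the peak, which left 890 shNC and 895 shNAT10 peaks unnamed. MT-CO3 was named by position. COXFA4 was listed under its older symbol NDUFA4.

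Named genes were the 8 genes, every other mitochondrial gene with a peak, the 3 genes of highest shNC fold enrichment of each nuclear list (all where 5 or fewer had a peak), and the 3 nearest nuclear genes of each member pair. Members and lists were chosen with earlier results of these data known. Alternatives were a 50% overlap of both peaks, centring on the median ratio, 1.5-fold, an FDR of at most 1e-10 or 0.05, a fold enrichment of at least 4, 1 peak per gene, a ceiling on fold enrichment and motif sites within 100 nt around the midpoint. Python 3.11.15 was used with numpy 2.4.6, scipy 1.17.1 and matplotlib 3.10.9.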

Additional observations from a re-analysis of the deposited data

How the results depend on the processing

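Of 62 alternative values, 48 stayed within the limit set for each (its 95% interval for a share, 1.5-fold for a ratio or count), and 14 moved beyond it. No direction was called, since no test between the conditions was made. With ratios centred on the median of all pairs, MT-CYB lay at 1.01 in place of 0.972. Its ratio thus crossed 1, and 6 of the 9 pairs were lower in shNAT10 in place of 7. All 27 alternative ratios of the 8 genes stayed within 1.5-fold of the reported ratio. They included the 5′ piece of MT-ATP6 and the mean of both pieces, which were chosen after seeing the data. Counted by its 5′ piece (ratio 0.494), MT-ATP6 would have been past 2-fold. With a 50% overlap of both peaks MT-ATP6 had no pair. The share of all overlapping pairs past 2-fold was 46.9%, and it was 65.9% at 1.5-fold, 43.8% with a 50% overlap, 39.6% with an FDR of at most 1e-10 in both lists and 44.7% with a fold enrichment of at least 4. It was 32.1% for pairs with the same boundaries and 22% for nuclear pairs with p-values like those of the 8 genes, both chosen after seeing the data. The share of shNC peaks overlapped by a shNAT10 peak was 41% with a 50% overlap, 63.5% with the stricter FDR and 49.6% with the stricter fold enrichment. Within 100 nt around the midpoint, 6 of the 22 motif sites remained, since the window is shorter than the peaks. Among nuclear pairs up to the highest fold enrichment of the 8 genes, the share with a lower ratio fell from 75.3% to 59.4% for MT-RNR2, from 76.1% to 59.8% for MT-CO1, from 60.6% to 48.5% for MT-CO3 and from 61.4% to 49.5% for MT-CYB. Apart from the motif window, the cause was not tested. No paired analysis was possible because there was a single IP and a single input for shNC and for shNAT10, and for the same reason no replicate could be left out. Without read counts, what depth limits cannot be stated.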
